A study of Mus musculus with 12 samples.

Results

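Retained introns are introns that stay in part of a gene's poly(A) RNA, and 1324 of them could be followed in every library of this series of mouse splenic CD4 T cells. The deposited files list, for each intron, the FPKM (fragments counted relative to transcript length and to all mapped fragments) of the form that keeps the intron and of the form that splices it out. An intron was taken where both forms were above 0 in some library and where their sum reached 5 FPKM in all 12 libraries, an unlisted form counting as 0. This left 1324 of 3961 paired introns. The measure is the retained percent, the retained form's share of the 2 forms together. These introns were chosen by their summed level, so that level is a description, and the retained percent was tested in a table of all 1903 introns whose sum reached 1 FPKM in every library.

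The study compared T cells of 2 genotypes, named KI and KIKO, in the context of proteasome dysfunction in T cells. The labels do not say which gene was altered, which alleles the mice carried, or how old they were. Each genotype was profiled as naive splenic CD4 T cells and as the same kind of cells activated for 16 h with Dynabeads mouse T-Activator CD3/CD28, and each of the 4 groups that result holds 3 libraries. The titles of the KIKO activated samples do not repeat the CD4 of the others, while their source does. Nothing in the labels says that the 3 libraries of a group came from separate animals, so p-values measure the spread between these libraries.

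Introns are removed by the spliceosome, which recognises a 5′ splice site, a branch point and a 3′ splice site. Serine and arginine rich (SR) proteins, hnRNP proteins and the CLK and SRPK kinases that phosphorylate SR proteins set how efficiently a weak intron is recognised. A transcript that keeps an intron may be held in the nucleus, or may reach the ribosome, meet an in-frame stop codon and be degraded by nonsense-mediated decay. Many splicing factor genes carry such introns and use them to control their own level, and T cells are known to lose retained introns when they are activated.

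The introns whose values the results turn on are shown here so that their ends and their first in-frame stop can be read beside the values. The sequences are those of GENCODE M21 transcripts (GRCm38) that contain the intron, found by the lengths of the intron and its neighbouring exons, and the coordinates are those of the files (GRCm39). Capitals mark the first and last 2 bases and, inside a coding gene, the first stop codon in the frame of the upstream exon. Every sequence runs 5′ to 3′ on the gene's strand. Zbtb17 (chr4:141191790-141191870, plus strand), Tmem208 (chr8:106055091-106055239, plus strand), Mettl17 (chr14:52122762-52122844, plus strand), Chkb (chr15:89312748-89312916, minus strand), Bcl2l11 (chr2:127970677-127970844, plus strand) and the noncoding Zfas1 (chr2:166907138-166907353, plus strand) are printed whole.
Zbtb17: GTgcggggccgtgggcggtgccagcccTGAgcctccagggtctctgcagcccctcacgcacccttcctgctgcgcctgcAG
Tmem208: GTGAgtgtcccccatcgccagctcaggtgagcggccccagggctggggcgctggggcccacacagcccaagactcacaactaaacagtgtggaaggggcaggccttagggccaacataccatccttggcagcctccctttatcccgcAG
Mettl17: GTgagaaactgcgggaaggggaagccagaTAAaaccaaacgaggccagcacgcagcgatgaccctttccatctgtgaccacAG
Chkb: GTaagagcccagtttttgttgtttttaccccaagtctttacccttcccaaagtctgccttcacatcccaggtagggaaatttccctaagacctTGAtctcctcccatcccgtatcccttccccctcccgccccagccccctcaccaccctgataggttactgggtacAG
Bcl2l11: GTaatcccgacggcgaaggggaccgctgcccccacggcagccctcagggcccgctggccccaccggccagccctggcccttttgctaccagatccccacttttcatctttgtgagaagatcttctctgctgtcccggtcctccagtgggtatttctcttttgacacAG
Zfas1: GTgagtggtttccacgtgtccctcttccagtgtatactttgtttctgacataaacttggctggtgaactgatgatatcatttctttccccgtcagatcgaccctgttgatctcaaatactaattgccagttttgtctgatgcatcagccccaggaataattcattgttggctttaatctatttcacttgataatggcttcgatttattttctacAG

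Of the longer introns of Srpk1 (chr17:28818844-28819216, minus strand, 373 bp) and Arglu1 (chr8:8731468-8733747, minus strand, 2280 bp), the first and the last 40 bases are shown.
Srpk1 first 40: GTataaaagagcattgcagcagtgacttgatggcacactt
Srpk1 last 40: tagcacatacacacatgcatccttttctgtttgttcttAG
Arglu1 first 40: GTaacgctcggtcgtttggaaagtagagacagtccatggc
Arglu1 last 40: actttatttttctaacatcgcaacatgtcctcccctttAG

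The Bcl2l11 intron has no stop codon in frame, while those of Zbtb17, Tmem208, Mettl17 and Chkb each hold a stop. In Tmem208 the stop begins at the second base of the intron and shares its bases with the 5′ splice site. Over all members, 1071 lie inside an exon of another annotated transcript and so have a sequence. Of these, 1054 begin with GT and end with AG, 16 begin with GC and end with AG, and 1 begins with AT and ends with AC. The letters GTAAGT or GTGAGT, which pair well with U1 snRNA, open 273 of the 1071 (25.5%). A reading frame could be carried into 984 introns, and 834 of them (84.8%) hold a stop codon in that frame. Of the 150 without a stop, 52 have a length that is a multiple of 3, as the Bcl2l11 intron has, and 98 have another length.

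The members are short. Their median length is 190.5 bp, from 20 bp in Plcl2 to 4694 bp in 5430416N02Rik, and 411 are at most 100 bp long while 186 exceed 1000 bp. By exon and intron lengths, 1124 matched 1 intron of GENCODE M21, 2 matched several and 198 matched none. The 1124 have a median length of 219.5 bp, against 649 bp for the 10718 other introns of the same 908 transcripts. Of the 1124, 883 lie between coding exons, 13 in an untranslated region, 31 in a noncoding gene and 197 in different parts in different transcripts. They come from 1021 loci, of which 231 hold 2 or more members and the fullest holds 6. Introns of a locus are not independent measurements, and 62 members carry retained-form values equal to those of another member of the locus in every library. The name a file gives a locus was that of a neighbour for 170 matched members. Arglu1 is listed as Mir7654, Gas5 as Gm25789, Zfas1 as Snord12, Ddx39b as Mir8094, Top3b as Ppm1f, Mettl17 as Slc39a2 and Clk2 as Fam189b.

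Most members were retained in a small share of the RNA, and a separate set was listed as retained almost always. The mean over the 12 libraries was at most 1% in 292 members, above 1% and up to 10% in 550, above 10% and up to 50% in 241, above 50% and up to 90% in 38, and above 90% in 203. The median of these means was 4.75%. The members above 90% had a median length of 92 bp, and 24 of the 203 matched an annotated intron, against 289 of the 292 at or below 1%. All 45 members shorter than 50 bp were in this highest set. Most of this set is thus not known as an intron, and whether its stretches are spliced as introns was not tested. Among the members with the highest means, those in Hsp90ab1, Chd2, Mtpap and Zfp592 were listed as retained at 98.8% or more in every library. Hsp90ab1 encodes a cytosolic HSP90 chaperone, and its 37 bp member had its lowest value at 99.9%. Ubb, whose coding sequence repeats the ubiquitin unit, carries a member of 228 bp that matched no annotated intron. It ranged from 73.9% to 100% over the libraries. At the low end stood introns of Caprin1, Ckap5, Kdm5a, Plcg1 and Hspa8, with no library above 0.0603%.

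**Figure D1:**
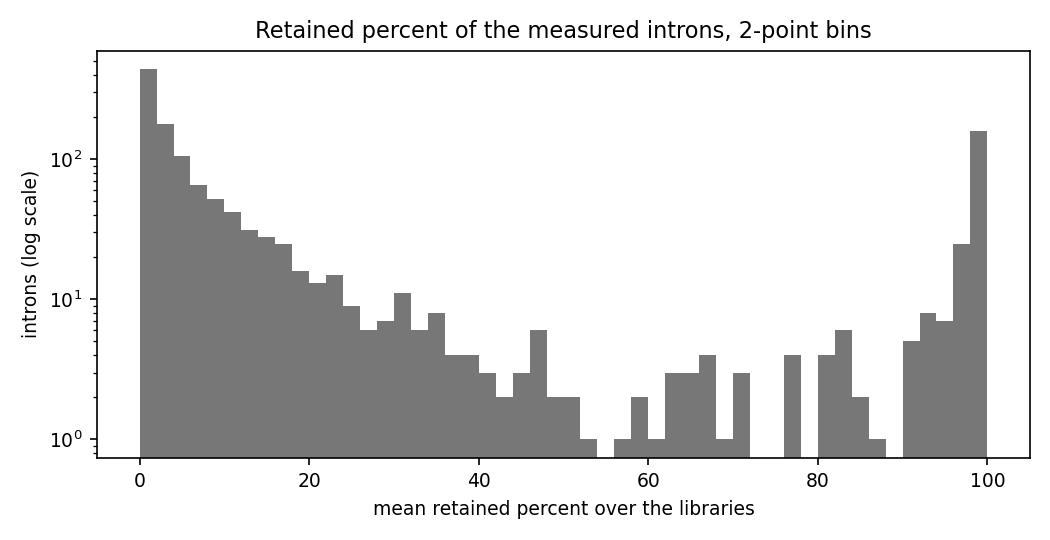
Number of introns (log scale) by mean retained percent over the 12 libraries, in bins of 2 points, for the 1324 members. The counts pile up near 0 and again near 100, with 38 members between 50 and 90%.

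Length and GC content went only loosely with the retained percent. Across the 1324 introns Spearman's rho between length and mean retained percent was -0.17, and across the 1071 with a sequence rho between GC content and mean retained percent was 0.17. Length and GC content are themselves related in the same introns (rho -0.46), and introns are not independent replicates, so these are descriptions. The median of the mean retained percents was 6.73% in introns of up to 100 bp and 3.38% in those over 1000 bp. Between libraries a member moved a median of 8.16 points from its lowest to its highest value, and 132 members spanned 50 points or more. The median SD within a group was 1.12 points in KI naive, 1.73 in KIKO naive, 0.674 in KI activated and 0.961 in KIKO activated cells.

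The libraries differ in ways the groups do not name. KIKO naive 2 has 85319 event lines against 100188 to 112679 in the others, and its retained form was unlisted for 357 members against 189 to 311 elsewhere. The T cell markers Cd3d, Cd3e, Cd3g, Cd4 and Cd5 were at 48.2 FPKM or more in every library, while Trac was listed at values from 0 to 99.5 FPKM. Of the CD8 markers, Cd8a stayed at or below 0.591 FPKM and Cd8b1 was at 6.51 to 8.12 FPKM in KI naive, 12.5 to 16.1 in KIKO naive and 8.39 to 12.8 in activated libraries. The summed FPKM of the erythroid markers was 2.24 in KIKO naive 1 and 3.36 in KIKO activated 1, against at most 0.225 elsewhere. The summed FPKM of 7 myeloid markers was 215 in KIKO naive 2 and 172 in KIKO activated 2, against 1.22 to 8.35 in the other 10 libraries, led by S100a8, S100a9 and Lyz2. The summed FPKM of the NK cell markers was 14.8 and 10.5 in the same 2 libraries, against at most 1.37 elsewhere, with Gzma at 8.01 and 7.57 FPKM. The myeloid markers Cd68 and Csf1r and the NK cell markers Ncr1 and Eomes were at 0 in KIKO naive 2. Counts without both KIKO libraries numbered 2 are given beside the main counts, and the part that such transcripts have in the results was not tested.

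More introns had a higher than a lower mean retained percent in KIKO than in KI cells, and more had a lower than a higher mean in activated than in naive cells. The median retained percent over the members was 3.47, 3.44 and 2.66% in the KI naive libraries, 4.68, 3.36 and 4.30% in KIKO naive, 2.22, 2.46 and 1.54% in KI activated and 3.57, 3.15 and 3.82% in KIKO activated. The activated libraries of the 2 genotypes do not overlap, while KIKO naive 2 lies within the range of KI naive. The retained form was unlisted, and so counted as 0, for 293, 254 and 292 members in KI activated libraries. In KIKO activated libraries it was unlisted for 189, 214 and 193, also without overlap. The part that unlisted forms have in these medians was not tested. In naive cells 771 members had a higher mean in KIKO than in KI and 437 a lower mean (56.8% and 32.7% of the table), with a median difference of 0.27 points. A percent of the table, here and below, is the share of all 1903 introns that met the same rule, members and others alike, unless a wider rule is named. In activated cells 849 were higher and 326 lower (61.3% and 24.4%), with a median difference of 0.41 points. Both forms were listed in all 12 libraries for 541 members. Of these, 387 were higher and 154 lower in naive cells, and 396 and 145 in activated cells. With activation 412 were higher and 759 lower in KI cells (30.7% and 54.8%, median -0.19 points), and 501 higher and 711 lower in KIKO cells (37.2% and 52.7%, median -0.12 points). These balances kept their direction without any 1 library, while the medians came closer to 0 without some libraries. The naive genotype median was 0.0973 without KI naive 3, 0.0890 without KIKO naive 1 and 0.103 without KIKO naive 3, and the activated one 0.208 without KI activated 3 and 0.264 without KIKO activated 3. The activation median in KI cells was -0.0420 and -0.0726 without KI naive 1 and 2 and -0.0633 without KI activated 3. In KIKO cells it was 0 without KIKO naive 3, -0.00076 without KIKO naive 1, and -0.0658 and -0.0628 without KIKO activated 1 and 2. The genotype and the activation comparisons share libraries. Over the 1903 introns of the table the medians were 0.28, 0.43, -0.14 and -0.10 points in the same order, so the members do not stand out from the table.

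**Figure D2:**
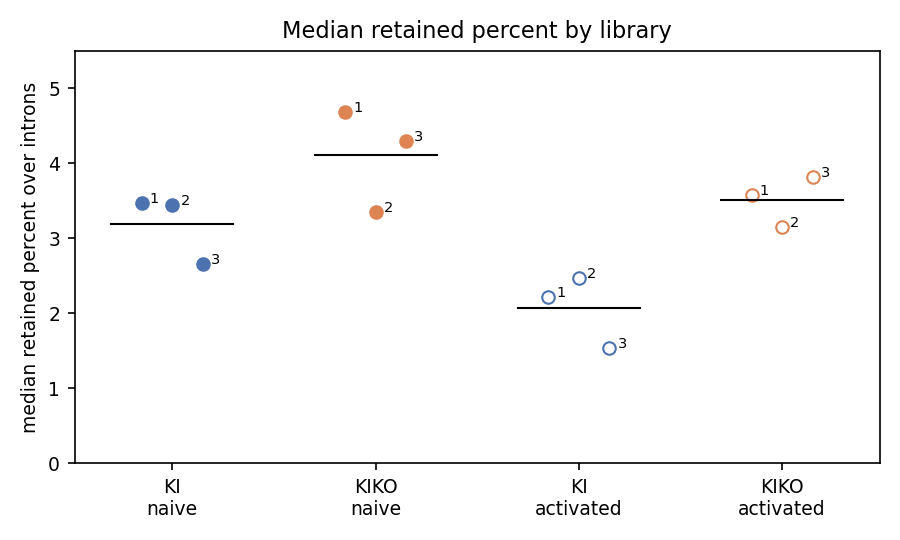
Median retained percent over the 1324 members in each library, with the replicate number beside each point and a line at the mean of the 3 libraries of a group (filled points naive, open points activated). The KI activated libraries lie between 1.54 and 2.46% and the KIKO activated libraries between 3.15 and 3.82%.

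The same balance was seen among members whose groups did not overlap. In naive cells 113 members lay higher in KIKO without overlap and 31 lower (7.15% and 1.89% of the table), and in activated cells 208 and 37 (13.3% and 2.42%). With activation 52 lay higher and 167 lower in KI cells (3.52% and 10.4%), and 53 and 123 in KIKO cells (4.15% and 7.51%). In naive cells 43 members were at least 10 points higher in KIKO with no overlap between the groups and 14 were at least 10 points lower, against 3.21% and 0.893% of the 1903 introns. In activated cells there were 38 higher and 11 lower (3.21% and 0.893% of the table). Activation gave 8 higher and 48 lower in KI cells (0.841% and 3.57%), and 12 higher and 45 lower in KIKO cells (1.37% and 3.15%). Without both KIKO libraries numbered 2 the counts were 68 higher and 22 lower in naive cells, 65 and 14 in activated cells, and 22 and 71 for activation in KIKO cells, where groups of 2 libraries overlap less easily. The share of members that met this rule in naive cells was 3.89% up to 100 bp, 5.6% from 101 to 200 bp and 3.23% over 1000 bp.

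**Figure D3:**
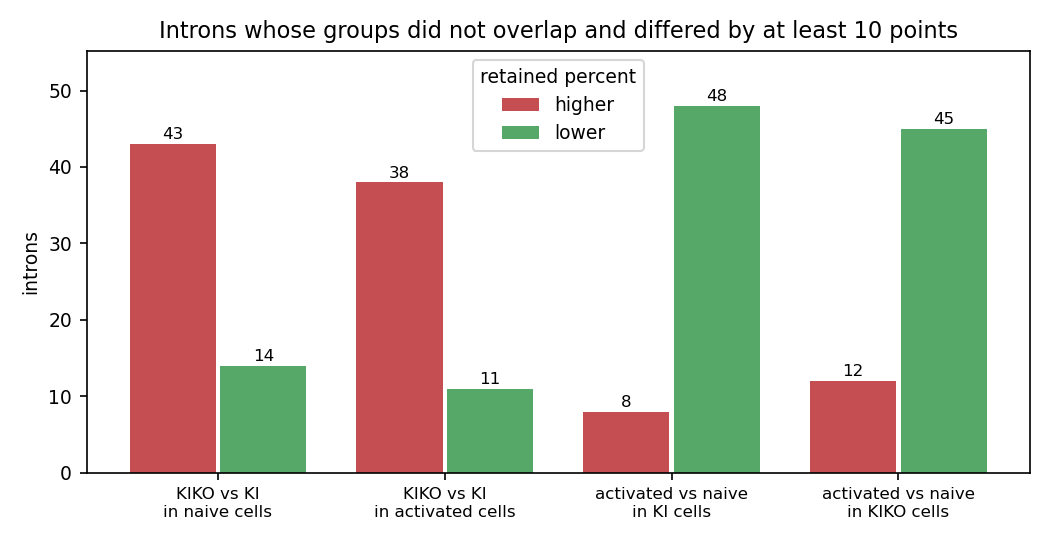
Number of members whose groups did not overlap and whose means differed by at least 10 points, higher and lower, in each of 4 comparisons. Higher counts exceed lower counts in both genotype comparisons (43 against 14 and 38 against 11), and the order is turned in both activation comparisons.

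The model across all introns made few calls that rest on a sizeable change in the retained percent. limma tested the log2 ratio of retained to spliced FPKM, with 1 FPKM added to each, and p-values were adjusted by the Benjamini-Hochberg method over the 1903 introns. At an adjusted p under 0.05 it called 1 member in naive cells by genotype (0.21% of the table called), 58 in activated cells by genotype (4.78%), 246 with activation in KI cells (18.1%) and 94 with activation in KIKO cells (6.52%). By direction of the log2 ratio these were 0 higher and 1 lower (0.0525% and 0.158% of the table), 33 and 25 (2.79% and 2%), 64 and 182 (5.36% and 12.7%), and 23 and 71 (1.79% and 4.73%). For the interaction of genotype and activation it called 0 members (0% of the table), with 159 at an unadjusted p under 0.05. Where the retained form is near 0, the added 1 FPKM makes this ratio follow the level of the spliced form. The spread of an intron was estimated from all 12 libraries together. A group whose retained form was unlisted throughout adds only the variation of its spliced form. The SE can then be too small for a group that varies more. This holds below for Man2c1, Map1s, Nsd1, Neurl3, Srsf2, Ddx39b and Dhps. Of the 58, 246 and 94 calls, 38, 155 and 52 moved by less than 1 point, and 13, 80 and 23 had a retained percent that moved the other way. With 0.1 FPKM added in place of 1, the 4 comparisons gave 2, 0, 8 and 2 calls. The members described next were called, did not overlap between the groups and differed by at least 10 points: 1 and 6 by genotype (0.105% and 0.473% of the table), 25 and 13 by activation (1.73% and 0.841%). No intron met this rule for the interaction.

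In activated cells 5 members were retained more in KIKO than in KI and 1 was retained less. These are 0.378% and 0.0755% of the members, where 0.42% and 0.0525% of all introns of the table met the rule. Srpk1 encodes a kinase of SR proteins. Its intron 10 was retained at 17.4, 21.1 and 20.2% in KI activated and at 35.6, 35.2 and 45.5% in KIKO activated libraries. The log2 ratio rose by 1.29 ± 0.24 (SE, adjusted p = 0.0206 by limma). The retained form went from 8.31 ± 0.767 to 17.8 ± 5.99 FPKM (SD, n = 3), and the sum of both forms was 42.5 ± 0.897 and 45.2 ± 8.65 FPKM. Arglu1 encodes an arginine and glutamate rich protein that works in splicing, and intron 2 of 3 is the one measured. Its retained percent was 27.1, 21.6 and 14.2 in KI activated and 51.4, 44.7 and 67.4 in KIKO activated libraries. The log2 ratio rose by 2.08 ± 0.47 (adjusted p = 0.0381).

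Zbtb17 encodes the MYC partner MIZ1, a transcription factor. Its 81 bp intron was retained at 12.3, 4.55 and 8.74% in KI activated and at 40.3, 36.4 and 25.4% in KIKO activated libraries (adjusted p = 0.0226). The retained percent of the 92 bp intron of Gpn3, a GTPase needed to bring RNA polymerase II into the nucleus, was 8.03, 10.8 and 6.81 against 21.8, 18.2 and 20.4 (adjusted p = 0.0226). In Man2c1, a cytosolic alpha-mannosidase, the retained form of a 209 bp intron was unlisted in all 3 KI activated libraries and made up 57.2, 45.8 and 59.2% in KIKO activated (adjusted p = 0.0237). Zfas1, a noncoding host of small nucleolar RNAs, went the other way, from 30.7, 37.6 and 23.1% in KI to 10.7, 9.98 and 5.20% in KIKO activated libraries (adjusted p = 0.0473). That the groups do not overlap in these 6 introns follows from the rule that picked them.

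These 6 calls depend on the scale and on single libraries. None of the 6 passed with 0.1 FPKM added, on the linear percent scale, or on a percent ratio with 1 point added. The same held with the library number in the fit as a replicate block. The Srpk1 call was lost without KI activated 1, 2 or 3 or KIKO activated 3, with an adjusted p of up to 0.0753 over the 12 fits that leave out 1 library. The Zbtb17 call was lost without KI activated 2 or 3 or KIKO activated 1 or 2 (up to 0.0838), the Gpn3 call without KI activated 1, 2 or 3 or KIKO activated 1 or 3 (up to 0.0854), and the Man2c1 call without any of the 6 activated libraries (up to 0.0854). The Arglu1 call was lost in 8 of the 12 fits (up to 0.135) and the Zfas1 call in 9 (up to 0.154). The whole count of 58 fell to 35, 9 and 11 without KI activated 1, 2 and 3, and to 20, 27 and 25 without KIKO activated 1, 2 and 3. Without both KIKO libraries numbered 2 it was 47, and the calls of Srpk1, Zbtb17 and Gpn3 passed there while those of Arglu1, Man2c1 and Zfas1 did not (adjusted p = 0.056, 0.056 and 0.086).

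**Figure D4:**
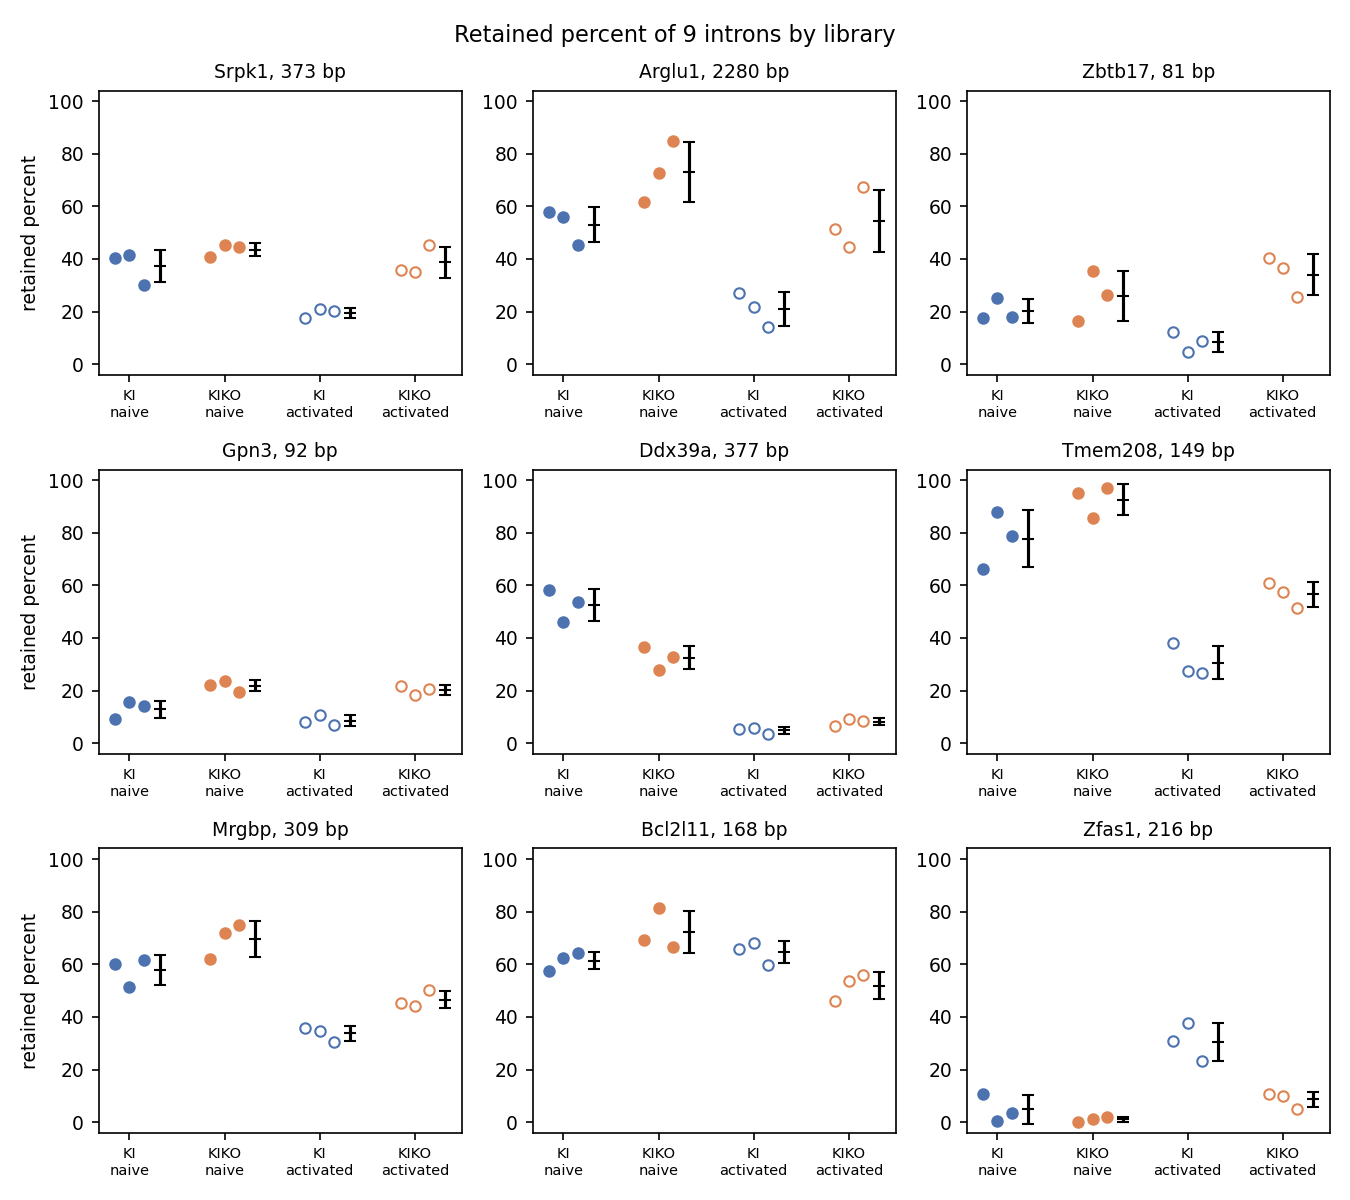
Retained percent of 9 introns in each library, with the mean and SD of the 3 libraries of a group in black beside the points (blue KI, orange KIKO, filled naive, open activated). In Srpk1, Arglu1, Zbtb17 and Gpn3 the KI activated libraries are the lowest, and in Zfas1 they are the highest.

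In naive cells the genotypes differed by all 3 criteria in 1 intron, retained less in KIKO (0.0525% of the table in each direction), the 584 bp intron 3 of Map1s, a microtubule-associated protein linked to autophagy. It was retained at 21.8, 76.2 and 70.9% in KI naive, and the retained form was unlisted in all 9 other libraries (log2 ratio -3.83 ± 0.58, adjusted p = 0.0392). The spread behind this SE comes from all 12 libraries, and outside KI naive the retained form did not vary. The 3 KI naive values span more than 50 points, and the call was lost without KI naive 2 or 3, KI activated 1, 2 or 3 or KIKO activated 3 (adjusted p up to 0.103), and without both KIKO libraries numbered 2 (0.0789). A 743 bp intron of Nsd1, a histone H3 lysine 36 methyltransferase, had a like pattern in naive cells. It was at 49.9, 83.0 and 66.9% in KI naive and unlisted in KIKO naive libraries, with an adjusted p of 0.0506. Unlike that of Map1s, its retained form was listed in KIKO activated cells, at 2.58 ± 4.47 FPKM (SD, n = 3). The count of 1 call in naive cells lay between 0 and 19 over the fits that leave out 1 library, with 19 without KIKO naive 3, and was 8 without both KIKO libraries numbered 2.

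Activation in KI cells lowered the retained percent of 22 introns and raised that of 3 by the same criteria (1.52% and 0.21% of the table). Ddx39a, an RNA helicase of splicing and mRNA export, gave the firmest value. Its 377 bp intron was retained at 58.3, 46.2 and 53.5% in KI naive and at 5.47, 5.84 and 3.36% in KI activated libraries (log2 ratio -4.27 ± 0.27, adjusted p = 3.18e-05). In KIKO cells it went from 36.5, 27.9 and 32.9% to 6.61, 9.22 and 8.56% (log2 ratio -2.32 ± 0.27, adjusted p = 0.00153). Both calls passed in all 22 alternatives run for them. In KI cells the spliced form went from 13.1 ± 1.46 to 128 ± 16.0 FPKM and the retained form from 14.6 ± 2.00 to 6.46 ± 1.37 FPKM (SD, n = 3). The difference between the genotypes in this response did not pass (interaction, adjusted p = 0.0809).

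Tmem208, an endoplasmic reticulum membrane protein, also fell in both genotypes. Its 149 bp intron went from 66.3, 88.0 and 78.8% to 37.9, 27.6 and 26.5% in KI cells (adjusted p = 0.00192), and from 95.0, 85.7 and 96.9% to 60.8, 57.3 and 51.4% in KIKO cells (adjusted p = 0.00985). Mrgbp, a subunit of the NuA4 acetyltransferase complex, went from 60.3, 51.3 and 61.8% to 35.9, 34.7 and 30.6% in KI cells (adjusted p = 0.00594) and from 62.0, 71.9 and 75.1% to 45.2, 44.1 and 50.3% in KIKO cells (adjusted p = 0.0186). The Mrgbp call in KIKO cells was lost without KIKO naive 3, KIKO activated 1 or KIKO activated 2 (adjusted p up to 0.0729) and without both KIKO libraries numbered 2 (0.113). Ddx39a, Tmem208, Mrgbp and Ccdc59 are the 4 members that met all 3 criteria in both genotypes. These comparisons share no libraries, but their tests share the same estimate of each intron's spread, taken from all 12 libraries.

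**Figure D5:**
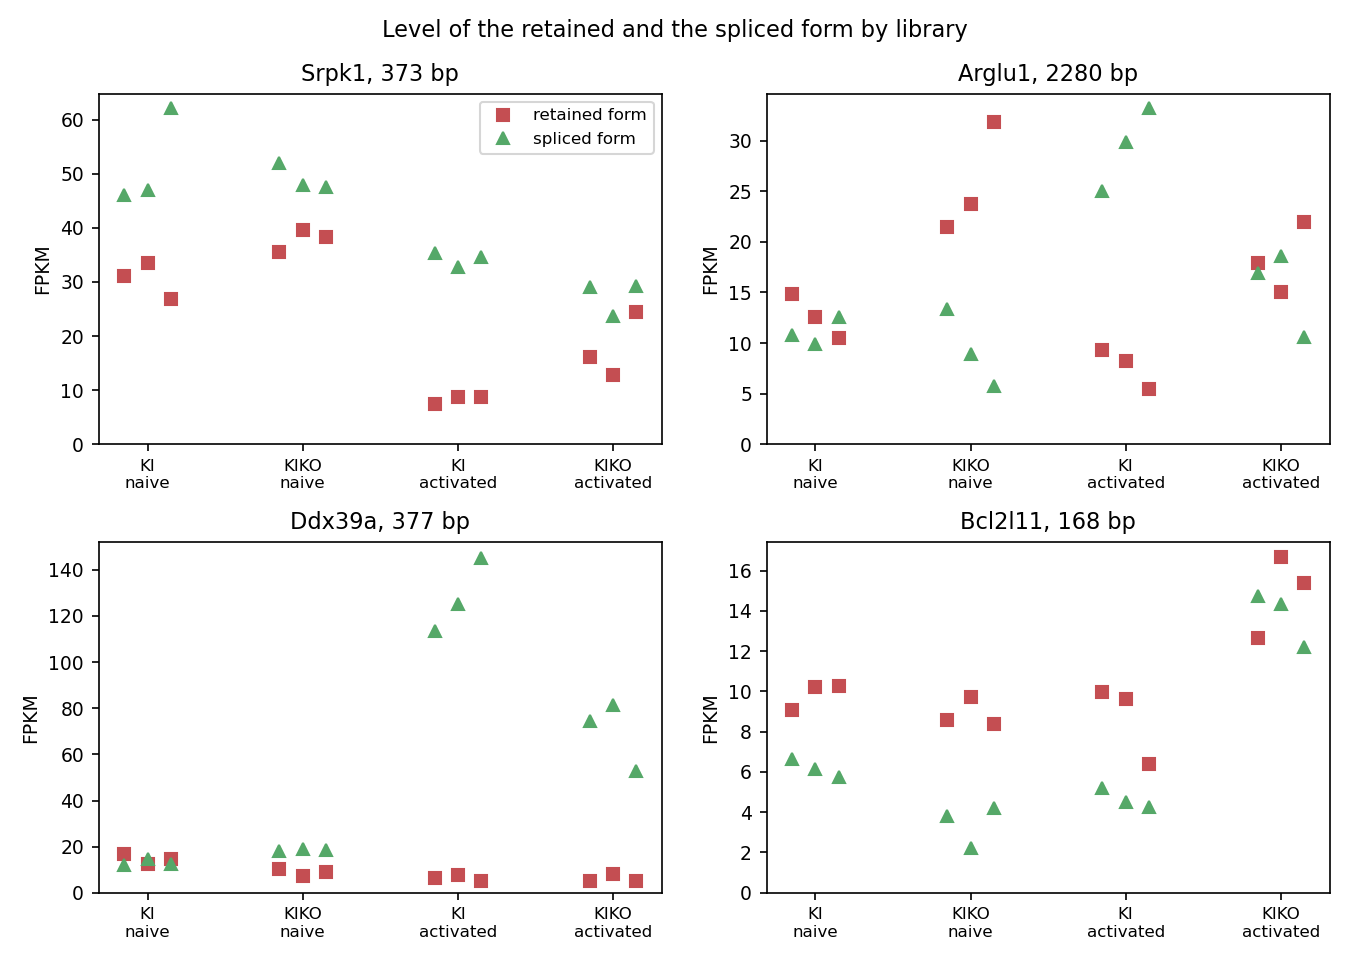
FPKM of the retained form (squares) and the spliced form (triangles) of 4 introns in each library. In Ddx39a the mean of the spliced form goes from 13.1 to 128 FPKM with activation in KI cells, and in Srpk1 the retained form is higher in KIKO than in KI activated libraries.

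Srpk1 and Arglu1, retained more in KIKO than in KI activated cells, were among those that fell with activation in KI cells. The Srpk1 intron went from 40.3, 41.6 and 30.2% to 17.4, 21.1 and 20.2% (log2 ratio -1.18 ± 0.24, adjusted p = 0.0083). In KIKO cells it was at 40.6, 45.2 and 44.5% before and 35.6, 35.2 and 45.5% after activation, with an adjusted p of 0.553. The Arglu1 intron went from 57.8, 56.0 and 45.4% to 27.1, 21.6 and 14.2% in KI cells (adjusted p = 0.0174, lost without KI naive 1, KI naive 2 or KI activated 3, at up to 0.073), while in KIKO cells it was at 61.7, 72.8 and 84.8% and then at 51.4, 44.7 and 67.4% (adjusted p = 0.172). A call in 1 genotype and not in the other does not show a difference, and the interaction did not pass for Srpk1 (adjusted p = 0.329) or Arglu1 (adjusted p = 0.662). The KI activated libraries serve in both the genotype and the activation comparison.

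Larger differences with activation in KI cells included introns whose retained form was unlisted in every KI activated library. The Neurl3 intron, in a ubiquitin ligase, fell from 73.1, 69.0 and 60.8% in KI naive libraries to 0% (adjusted p = 0.00928). The Nsd1 and Map1s introns also fell to 0% from the KI naive values given above (adjusted p = 0.00314 and 0.00144). The 500 bp intron of the topoisomerase Top3b went from 46.9 ± 28.6% (SD, n = 3) to 9.71, 2.70 and 2.22% (adjusted p = 0.0189, lost without KI activated 2 or 3, at up to 0.0674). The Chkb intron, in a choline kinase, went from 62.1, 70.6 and 72.8% to 25.8, 29.1 and 30.0% (adjusted p = 0.0459, lost in 9 of 12 fits without 1 library). Smaller falls were called in Mettl17, a mitochondrial ribosome factor, from 56.5, 80.4 and 40.7% to 30.1, 28.6 and 23.2% (adjusted p = 0.0385, lost in 7 of 12 fits), and in Reep4, an endoplasmic reticulum protein, from 36.1, 28.0 and 37.0% to 3.82, 10.1 and 13.8% (adjusted p = 0.0455, lost in 9 of 12). In KIKO cells the Chkb intron was at 45.6, 7.28 and 10.6% before and 34.5, 37.5 and 58.3% after activation. There the mean retained form of Top3b was 0.378 FPKM before and 0.847 FPKM after activation. That of Neurl3 was 14.8 and 2.57 FPKM, that of Mettl17 6.25 and 2.42 FPKM and that of Reep4 5.93 and 3.21 FPKM.

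The 3 introns retained more with activation in KI cells belong to noncoding hosts of small nucleolar RNAs. Zfas1 went from 10.9, 0.384 and 3.45% to 30.7, 37.6 and 23.1% (log2 ratio 2.48 ± 0.49, adjusted p = 0.00706). A 271 bp intron of Gas5 went from 4.64, 1.43 and 0.241% to 12.9, 13.9 and 13.7% (adjusted p = 0.00956), and its 304 bp intron from 6.32, 8.19 and 6.07% to 14.2, 18.4 and 20.2% (adjusted p = 0.0169). The first 2 passed in all 12 fits that leave out a library, and the 304 bp intron was lost without KI naive 1, KI activated 2 or KI activated 3 (up to 0.0696). A 447 bp intron of Gas5 moved by fewer points, from 0.361, 0.546 and 0.512% to 6.37, 7.40 and 5.58% (log2 ratio 2.76 ± 0.27, adjusted p = 0.000156). With 0.1 FPKM added, 10 of the 13 introns named by rank for activation in KI cells lost the call, Zfas1 and both ranked Gas5 introns among them (adjusted p = 0.13, 0.106 and 0.13), and 11 lost it on the percent ratio. The count of 246 fell to 156, 151 and 136 without KI naive 2, KI activated 2 and KI activated 3.

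In KIKO cells activation lowered 12 introns and raised 1 by the same criteria (0.736% and 0.105% of the table). The 1059 bp intron of Srsf2, an SR protein known to control its own RNA through its 3′ end, lies in the untranslated region. It was at 100, 86.5 and 100% in KIKO naive and at 0% in all KIKO activated libraries (adjusted p = 0.0114). In KI cells it was at 100, 0 and 87.7% and then at 0% in all libraries, with an adjusted p of 0.0491 and overlapping groups. Ddx39b, the close relative of Ddx39a in mRNA export, and Dhps, the enzyme that begins hypusine synthesis, were likewise unlisted after activation. Ddx39b went from 66.1, 81.9 and 70.1% to 0% in every KIKO activated library (adjusted p = 0.0114), and Dhps from 54.0, 85.9 and 54.2% to 0% (adjusted p = 0.018). In KI naive libraries the retained form of each was unlisted in 2 of 3. The Dhps call was lost without KIKO activated 1 or 2 (up to 0.0657).

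Ciz1, a nuclear matrix protein of DNA replication, fell from 27.4, 32.6 and 44.5% to 6.78, 7.27 and 9.08% (adjusted p = 0.00977). Adck5 fell from 49.1, 78.0 and 34.2% to 25.4, 0.776 and 11.1% (adjusted p = 0.0464), and Aspscr1, a partner of the p97 ATPase, from 44.6, 32.2 and 6.01% to 3.83, 1.02 and 0.294% (adjusted p = 0.048). These last 2 calls were lost in 10 and 11 of 12 fits without 1 library. In KI cells the retained form of Ciz1 went from 2.28 ± 1.08 to 0.587 ± 0.542 FPKM (SD, n = 3). In KIKO cells Srsf6, another SR protein, was the intron that rose, from 52.5, 66.5 and 45.0% to 82.2, 87.2 and 71.9% (adjusted p = 0.0335, lost in 8 of 12 fits), and its value depends on how duplicate lines are dropped. Its mean retained form went from 23.4 to 20.9 FPKM there and its spliced form from 19.6 to 5.03 FPKM. In KI cells the Srsf6 retained form went from 13.6 to 8.96 FPKM and the spliced form from 7.97 to 1.91 FPKM. Of the 11 introns named by rank for activation in KIKO cells, 10 lost the call with 0.1 FPKM added, all but Ddx39a. Without both KIKO libraries numbered 2 the call was lost in 7, among them Ddx39b (adjusted p = 0.0777), Dhps (0.112) and Ciz1 (0.0568). The count of 94 fell to 45 and 38 without KIKO activated 1 and 2, and to 48 without both KIKO libraries numbered 2.

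Bcl2l11 encodes the cell death protein BIM, and its 168 bp intron is the stretch that separates the longer BIM-EL form from BIM-L, so that both forms are coding. It was retained at 69.1, 81.5 and 66.5% in KIKO naive and at 46.2, 53.8 and 55.8% in KIKO activated libraries (log2 ratio -1.08 ± 0.27, adjusted p = 0.0409, lost in 10 of 12 fits). In KI cells it was at 57.6, 62.5 and 64.2% before and 65.7, 68.2 and 59.9% after activation. With activation in KIKO cells the retained form went from 8.87 ± 0.724 to 14.9 ± 2.06 FPKM and the spliced form from 3.42 ± 1.07 to 13.8 ± 1.38 FPKM (SD, n = 3).

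Genes of RNA processing host many members themselves. Of 14 members in genes of the nuclear exosome and mRNA export, 12 had a higher mean in KIKO naive than in KI naive and 13 in activated cells, with medians of 1.02 and 1.30 points. With activation 12 of the 14 were lower in KI and 12 in KIKO cells. The test, with the percent moving the same way, called 1 higher by genotype in activated cells, Thoc6, and 3 and 2 lower by activation. Under the wider rule that leaves the percent free, 2.79% of the table was called higher by genotype and 12.7% and 4.73% lower by activation. For comparison, 849 of all 1324 members had a higher mean in KIKO activated cells and 759 a lower mean in KI activated cells. The 5 members in kinase genes of the CLK, SRPK and DYRK list had medians of 6.12 and 5.62 points by genotype in naive and activated cells. In each, 4 had a higher and 1 a lower mean in KIKO. The test, with the percent moving the same way, called 1 higher and 1 lower in activated cells and none in naive cells. The Clk2 intron, of 346 bp, was at 0.738, 0.861 and 4.17% in KI activated and at 41.1, 10.2 and 19.5% in KIKO activated libraries, with no overlap and an adjusted p of 0.119. The Clk3 member, of 2100 bp, lay between 10.0 and 25.2%, and the Clk1 and Clk4 members stayed at or below 1.52% in all libraries.

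The 6 SR protein members moved less evenly, and no genotype call was made among them. Srsf5 ranged from 19.4 to 100% within KI naive alone, and Srrm1 from 43.6 to 100%. Among 9 members in 5 hnRNP genes, the 111 bp intron of Hnrnpl, which represses exon inclusion, was at 31.7, 27.5 and 22.7% in KI naive and 44.7, 54.7 and 39.4% in KIKO naive libraries, with no overlap and an adjusted p of 0.127. The 8 members in core spliceosome genes had medians of -0.26 and 0.29 points by genotype, and the 1 in a decay gene, Smg6, was at 92.1% or more throughout. In other splicing regulators, 7 of 10 members had a higher and 3 a lower mean in KIKO naive cells, and 5 and 3 in KIKO activated cells. Of all members 58.2% and 64.1% had a higher mean in these comparisons. None of the 10 was called by genotype with the percent moving the same way apart from the 84 bp intron of Rbm5, which stayed at or below 0.206%.

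The 23 members in 17 proteasome subunit genes had 16 higher and 7 lower means in KIKO naive, and 18 higher and 5 lower in KIKO activated cells, with medians of 0.28 and 0.63 points. With activation 17 of the 23 had a lower mean in KI and 15 in KIKO cells. The test, with the percent moving the same way, called 7 and 5 lower. Under the wider rule that leaves the percent free, 12.7% and 4.73% of the table was called lower. In Psmc5, an ATPase of the regulatory particle, the means were 14.5% in KI naive, 19.2% in KIKO naive, 6.02% in KI activated and 12.7% in KIKO activated cells. Its fall with activation in KI cells passed (adjusted p = 0.0128). No proteasome member was called by genotype with the percent moving the same way. Of 22 members in 9 snoRNA host genes, 16 had a lower mean in KIKO activated cells, 8 of them without overlap. The test, with the percent moving the same way, called 5 lower. Of the 1903 introns 24.4% had a lower mean and 2.42% lay lower without overlap, and 2% were called lower with the percent left free. Several of the 22 members share a gene. Besides Zfas1, Snhg12 was at 9.86% in KI activated and 2.17% in KIKO activated cells on average (adjusted p = 0.0435). The lists were chosen with earlier results in view, so these counts carry no test of their own.

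Among genes of the 8 RNA processing lists, 172 loci were tested for the level of the whole locus with limma. In KIKO activated cells 26 were higher and 65 lower than in KI activated cells, where 20.7% of all 9743 loci were higher and 19.3% lower, 40% in all. In the kinase list 5 of 7 loci were higher and 0 lower, among them Clk1 at 57.0 ± 10.3 FPKM in KI activated and 102 ± 15.7 FPKM in KIKO activated cells (SD, n = 3). Of 21 hnRNP loci 14 were lower and 0 higher. For nonsense-mediated decay 6 of 13 loci were higher and 1 lower, among them Smg5 (34.0 ± 1.68 and 52.4 ± 4.04 FPKM) and Upf2 (16.3 ± 0.861 and 23.9 ± 0.643 FPKM).

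At the limit of 5 FPKM the introns just inside were in Dvl3, Rtel1 and Mcoln1 and those just outside in Fbf1, Klhl24 and Tmem214. The longest members were in 5430416N02Rik, Cers5, Gopc, Tspan32 and Ogt. The 3415 bp Ogt intron, in the O-GlcNAc transferase whose retained intron is known to respond to O-GlcNAc levels, was at 73.1, 79.1 and 83.5% in KI naive and at 42.7, 40.6 and 0% in KI activated libraries. In KIKO cells it was at 82.6, 68.0 and 90.7% and then at 63.9, 0 and 73.2%, and no comparison passed for it. The shortest, of 20 to 24 bp in Plcl2, Eprs, Tatdn2, Chd1l and Spen, were listed as retained at 100% in 11 of the 12 libraries each.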

How the data were processed

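RNA was measured in 12 libraries of splenic CD4 T cells. Total RNA (15 ng per sample) went through poly(A) selection and the TaKaRa SMART-seq stranded protocol, as the labels' protocols state. The submitters' processing notes name FastQC 0.11.9, cutadapt 2.9 and HISAT2 2.2.0. Which software computed the event levels is not given in the sources. Levels are FPKM per transcript event, deposited by the authors, with unlisted events taken as 0. Read numbers, and so depth, are unknown.

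Duplicate event identifiers were dropped, and retained and spliced events were paired by locus and coordinates. limma 3.58.1 in R 4.3.3 fitted 4 group means to log2(retained FPKM + 1) minus log2(spliced FPKM + 1), with a variance trend on level, over 1903 introns. The level of a locus was tested as log2(FPKM + 1). The members and gene lists were chosen with earlier results of these data known. Introns were named where called, not overlapping and at least 10 points apart (up to 12 each way by genotype, 10 by activation), or hosted by a listed gene, or at the extremes of level, length and limit. On simulated data for naive cells by genotype, 36 of 100 changes of log2 1 and 66 of 100 of log2 2 were recovered over 1903 introns, with 4 false calls. The simulated noise was normal with 1 SD per intron for all groups, and unlisted forms were not simulated. KIKO naive libraries had the widest spread of the groups, so these shares need not hold for the real comparison. Alternatives varied the pseudocount, scale, filter, trend, duplicates, replicate block and libraries.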

Additional observations from a re-analysis of the deposited data

Results flagged for a closer look

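In 3 introns every KIKO library moved one way from the KI libraries in naive cells and the other way in activated cells. The difference between the 2 genotype effects was 62.5 points for Chkb (-47.3 points in naive and 15.1 in activated cells), with an unadjusted interaction p of 0.00237 and an adjusted p of 0.149 by limma. For the 140 bp intron of Ankzf1, a factor of stalled ribosome release, it was 44.2 points (-19.7 and 24.5, unadjusted p = 0.00457, adjusted p = 0.199 by limma). For Bcl2l11 it was -23.6 points (10.9 and -12.7, unadjusted p = 0.00827, adjusted p = 0.242 by limma). None of the 3 passed after adjustment over the 1903 introns, and KIKO activated 3 holds the highest KIKO activated value in all 3, at 58.3, 60.2 and 55.8%.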

How the results depend on the processing

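Calls in naive cells by genotype, in activated cells by genotype, with activation in KI cells and with activation in KIKO cells were 1, 58, 246 and 94. They became 2, 0, 8 and 2 with 0.1 FPKM added, 0, 2, 8 and 9 on the linear percent scale, and 2, 1, 6 and 1 for the percent ratio with 1 point added. They were 0, 36, 144 and 60 among members of at least 10 FPKM, and 0, 13, 79 and 38 with both forms listed in all 12 libraries. A difference of at least 10 points left 6, 29 and 15 in the last 3 comparisons. The first comparison gave 0 with members only in the table and 5 with duplicates dropped by identifier and coordinates. Without both KIKO libraries numbered 2, chosen after seeing the data, it gave 8, activation in KIKO cells 48 and the interaction 2. Leaving out 1 library gave 0 to 19, 9 to 80, 136 to 299 and 38 to 103 calls, and 0 to 7 for the interaction. For the level over the intron in naive cells by genotype it gave 77 to 179. Median-ratio scaling turned the balance of these level calls by genotype, from 94 higher and 50 lower to 69 and 76 in naive cells and from 328 and 260 to 231 and 333 in activated cells. The level chose the members, so these counts describe it only. For listed loci it gave 12 to 24 in naive cells by genotype and 37 to 64 for the interaction. A replicate block gave 0 and 25 calls by genotype in naive and activated cells, and none of the 6 introns described for activated cells was among the 25. It also lost the Map1s call by genotype and, with activation in KI cells, those of Chkb and Mettl17. With activation in KIKO cells it lost those of Srsf6, Adck5, Aspscr1 and Bcl2l11. Same-numbered libraries correlated between -0.07 and 0.11 in their deviations. For KIKO naive with KIKO activated these values were 0.112, 0.0265 and 0.104, against at most 0.0125 for unlike numbers. For KI naive with KIKO naive they were 0.0892, 0.0317 and 0.0458, against at most -0.000783. Where KI activated libraries took part, some unlike numbers correlated more, at up to 0.144. The main fit did not take the numbers as pairs, and whether they pair samples was not tested. The cause of these differences was not tested. Depth is unknown from FPKM.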
